A study of Mus musculus with 9 samples.

Results

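Probe sets of 9 genes of fatty acid handling were followed in KKAy mouse liver: the acyl-CoA thioesterases Acot1, Acot2, Acot3 and Acot4, the omega-oxidation genes Cyp4a10, Cyp4a14 and Aldh3a2, the pantetheinase Vnn1 and the pyruvate dehydrogenase kinase Pdk4. Every probe set that the platform annotation gives to these 9 genes was taken, which gave 13 of the 45037 probe sets. Of these, 11 are annotated to 1 gene and together measure 8 of the 18193 genes with a probe set of their own. The other 2 are each annotated to a pair of genes, 1 to Acot1 and Acot2 and 1 to Cyp4a10 and Cyp4a31. Cyp4a10 was measured only by the second of these, whose signal is assigned to neither gene. The 9 genes were chosen from differences already seen between these same groups, so every difference between groups is given here as a description with its standard error (SE). The counts past a p threshold, given beside those over all probe sets, support nothing about these genes.

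The design has 3 groups of 3 arrays. All mice were of the KKAy strain, an obese model of type 2 diabetes, and 8 weeks old. The BI group had intraperitoneal injections of 100 µL DMEM, a culture medium, with 40 µg/mL total insulin, of which 11% was modified by biomineralization. The insulin group had the same volume and total concentration of plain insulin, and the untreated group is labelled as having no treatment. The protocol speaks of control mice injected with DMEM, and the labels do not say whether the untreated group is that one. Mice ate a chow with 34% fat, but the growth protocol recorded for BI replicate 2 describes rats. Its correlation with the other arrays over all probe sets ran from 0.914 to 0.921, within the 0.909 to 0.921 of all pairs, and values without it are given for the genes the results turn on. Feeding state, time of day, and whether an array holds RNA of 1 animal or a pool are not given in the sources used here, so the spread between arrays may be technical in part.

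PPARA is a nuclear receptor that is activated by fatty acids and binds DNA as a pair with RXR. In liver it switches on genes of fatty acid oxidation during fasting, and rodent Acot, Cyp4a, Aldh3a2, Vnn1 and Pdk4 genes are among its known targets. Thioesterases split acyl-CoA into free acid and CoA. Omega-oxidation starts at the far end of the fatty acid: CYP4A enzymes add a hydroxyl group there, and a fatty aldehyde dehydrogenase takes part in turning it into a dicarboxylic acid.

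Acot2, Acot1, Acot4 and Acot3 lie side by side in this order on chromosome 12, followed by Acot5 and Acot6. Cyp4a14, Cyp4a10 and Cyp4a31 are likewise neighbours on chromosome 4. RefSeq promoter windows of GRCm38.p6, from 250 bases before to 50 bases after a start site, were at hand for 6 of the 9 genes (7 windows, as Acot3 has 2). Windows of 4 genes are printed: Acot1, Acot2 and Aldh3a2 because their BI arrays all lay above the untreated arrays, and Acot4 because its window came closest to the sequence that PPARA is known to bind. They are Acot2 (chr12:83987611-83987910, plus strand), Acot1 (chr12:84009252-84009551, plus strand), Acot4 (chr12:84038129-84038428, plus strand) and Aldh3a2 (chr11:61267137-61267436, minus strand). Each is written 5′ to 3′ along its gene. Capitals mark the stretch closest to AGGTCANAGGTCA, the direct repeat that the PPARA and RXR pair is known to bind, on either strand. Where stretches tied, only the first is marked, with the gene's strand taken before the other. The Acot2 and Acot1 windows hold other stretches with as many mismatches as the marked one.
Acot2: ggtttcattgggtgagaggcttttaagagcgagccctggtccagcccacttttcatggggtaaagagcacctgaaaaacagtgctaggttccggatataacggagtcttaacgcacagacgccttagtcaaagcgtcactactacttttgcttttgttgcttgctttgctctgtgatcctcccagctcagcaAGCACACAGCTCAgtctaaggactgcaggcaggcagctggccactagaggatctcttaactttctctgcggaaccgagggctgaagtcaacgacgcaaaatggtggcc
Acot1: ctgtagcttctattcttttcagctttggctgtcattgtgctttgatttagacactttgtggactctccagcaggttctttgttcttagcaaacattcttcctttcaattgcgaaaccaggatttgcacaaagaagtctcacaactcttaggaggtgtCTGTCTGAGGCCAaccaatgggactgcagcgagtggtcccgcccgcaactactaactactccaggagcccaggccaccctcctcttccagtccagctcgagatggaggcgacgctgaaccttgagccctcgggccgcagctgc
Acot4: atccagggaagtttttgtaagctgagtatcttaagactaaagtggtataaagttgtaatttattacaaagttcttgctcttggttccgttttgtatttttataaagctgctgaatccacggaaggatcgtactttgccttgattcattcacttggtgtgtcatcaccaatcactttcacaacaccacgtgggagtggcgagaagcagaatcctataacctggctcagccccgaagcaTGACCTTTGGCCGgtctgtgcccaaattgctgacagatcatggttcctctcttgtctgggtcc
Aldh3a2: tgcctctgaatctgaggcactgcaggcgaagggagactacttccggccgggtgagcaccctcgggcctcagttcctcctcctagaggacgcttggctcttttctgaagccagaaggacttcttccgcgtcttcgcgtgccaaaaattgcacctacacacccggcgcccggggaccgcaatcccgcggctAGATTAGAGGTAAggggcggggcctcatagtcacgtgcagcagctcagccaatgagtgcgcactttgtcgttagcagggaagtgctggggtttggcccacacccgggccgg

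The Acot4 window came closest to the repeat, with 2 mismatches on the minus strand, starting at base -13 from the start site. A match with at most 2 mismatches was held by 3.86% of the 32851 promoter windows searched. The closest stretch had 3 mismatches in Acot2, Acot3 and Aldh3a2, and 24.6% of all windows had at most 3. In Acot1 and Pdk4 it had 4 mismatches, as did 79.8% of all windows at 4 or fewer. An exact repeat occurred in 0 of the 7 windows and in 0.0396% of all windows. The single hexamer AGGTCA, searched on both strands and contained in the repeat, occurred in 3 of the 7 windows (both of Acot3 and that of Acot4) and in 16.3% of all. The Acot3 windows overlap almost fully, so the same copy of the hexamer is counted in both. TATAAA on the gene's strand occurred in 1 of the 7 windows, that of Acot4, and in 8.32% of all. These matches describe the letters of the windows and show no binding. Aligned end to end, the windows of Acot1 and Acot2 were 45.7% identical and those of Acot1 and Aldh3a2, on different chromosomes, 45.4%.

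All levels below are log2 signals of a probe set as the authors processed them, and a difference of 1 is a doubling. Levels of different probe sets are not compared with each other, since probes differ in brightness. Array medians lay between 6.12 and 6.30. The mean of 7 hepatocyte markers was 14.90 to 15.09 on BI arrays, 14.97 to 15.07 on insulin arrays and 14.93 to 15.20 on untreated arrays. RNA quality was read from Gapdh: its 3' probe set exceeded its 5' probe set by 0.26 to 0.42 on BI arrays, 0.48 to 0.55 on insulin arrays and 0.28 to 0.65 on untreated arrays.

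In BI-treated liver 7 of the 8 genes with a probe set of their own had a higher mean than in untreated liver, with a median difference of 0.97 and a range of -0.24 to 2.07. Over all 18193 genes 50.1% were higher and the median difference was 0.00. Of the 8 genes 3, Acot1, Acot2 and Aldh3a2, lay higher on every BI array than on any untreated array. In probe sets this was 4 of 11, where 4.94% of all probe sets lay higher without overlap and 4.26% lay lower. With limma's test adjusted over all probe sets, 0 of the 11 passed 0.05 and 0.0111% of all probe sets did. Unadjusted, 4 of the 11 and 4.48% of all probe sets had a p under 0.05. Without BI replicate 2 the median difference was 0.96 and 4 of the 8 genes lay higher without overlap. Smaller groups separate more easily, and the share of all probe sets was not computed without this array. Because the genes were picked with this comparison known, nothing is read from these counts.

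**Figure D1:**
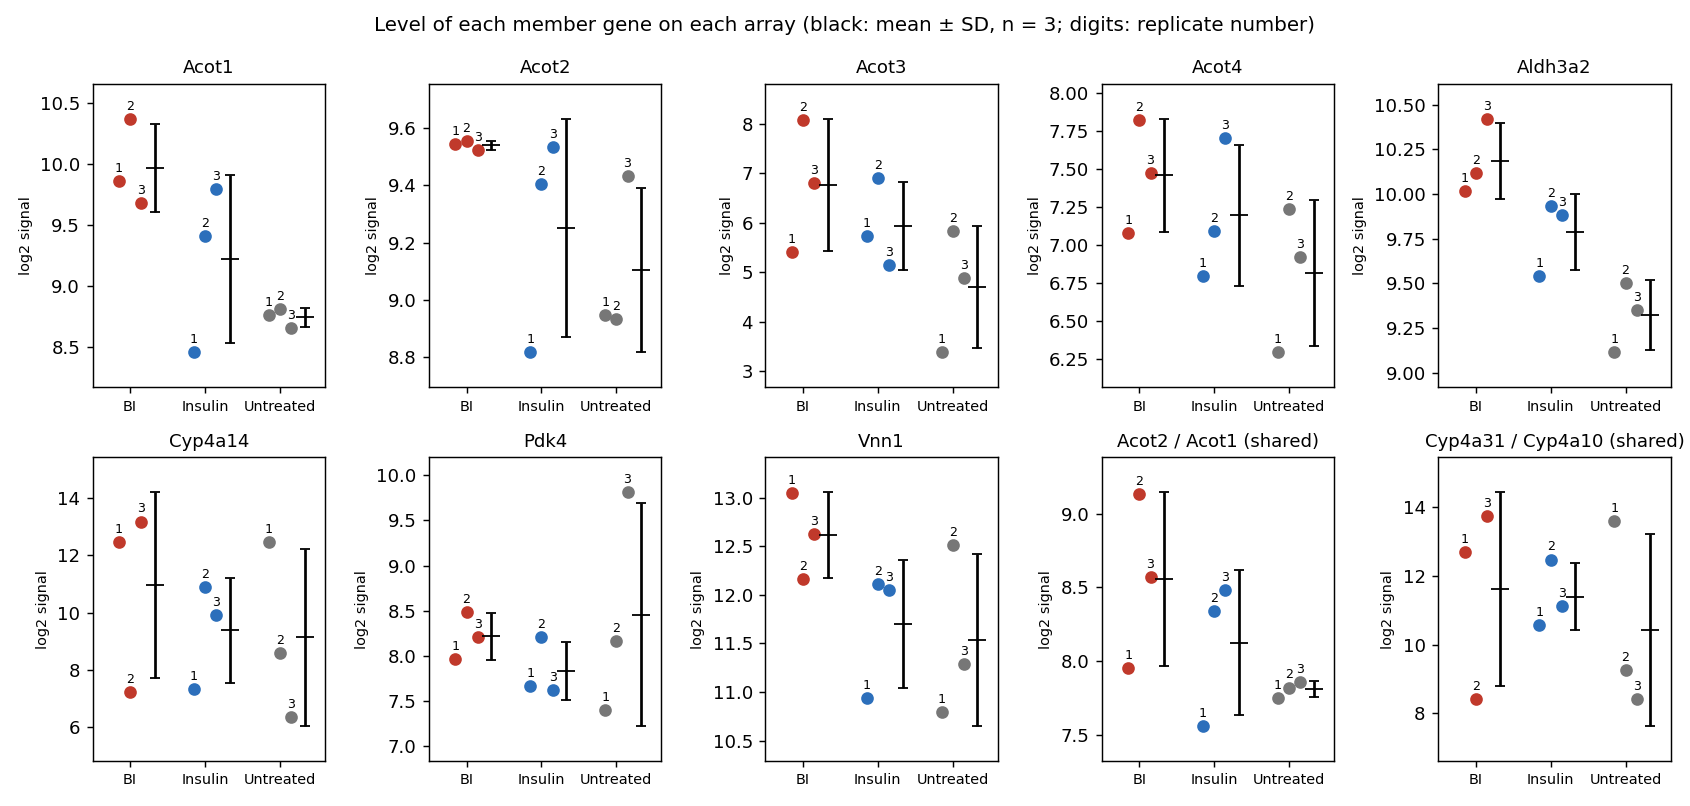
Log2 signal (vertical axes, not starting at 0) on each of the 9 arrays for 1 probe set of each of the 8 genes and the 2 shared ones, with BI arrays on the left, insulin arrays in the middle and untreated arrays on the right. Points are arrays, numbered by replicate, and bars are group means ± SD. Aldh3a2 is highest on the BI arrays, lower on the insulin arrays and lowest on the untreated arrays without overlap, while Cyp4a14 ranges from 6.35 to 13.19 with high and low arrays in each group.

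Acot1, the cytosolic thioesterase for long-chain acyl-CoA, had levels of 9.86, 10.37 and 9.68 on the BI arrays, 8.46, 9.41 and 9.79 on the insulin arrays and 8.76, 8.81 and 8.66 on the untreated arrays. The untreated arrays lay close together (8.74 ± 0.078, SD, n = 3), every BI array lay above them (9.97 ± 0.36, SD, n = 3), and the insulin arrays (9.22 ± 0.69, SD, n = 3) spread over both ranges. BI minus untreated was 1.23 ± 0.36 (SE), a 2.34-fold difference, and 1.03 without BI replicate 2. Insulin minus untreated was 0.48 ± 0.36 and BI minus insulin was 0.75 ± 0.36. Because these are bulk samples, fewer cells of a type and less RNA per cell cannot be told apart, here or for any other gene.

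Acot2, its mitochondrial relative, has 2 probe sets. The one with the higher mean, 1439478_at, stood at 9.54, 9.55 and 9.52 on the BI arrays, 8.82, 9.40 and 9.53 on the insulin arrays and 8.95, 8.93 and 9.43 on the untreated arrays. The BI arrays were nearly equal and all above the untreated arrays, with 1 insulin array among them. The difference between BI and untreated was 0.43 ± 0.24 (SE), or 1.35-fold. This was the smallest among the 4 thioesterases by the probe set with the highest mean of each. By their other probe sets Acot2, at 0.50, lay above Acot4, at 0.46. The other, 1422996_at, gave 7.03, 6.97 and 6.87 on the BI arrays, 6.42, 6.11 and 6.78 on the insulin arrays and 6.37, 6.60 and 6.39 on the untreated arrays. Here the BI arrays lay above all 6 others. BI minus untreated was 0.50 ± 0.20 and BI minus insulin 0.52 ± 0.20, while insulin minus untreated was -0.02. The 2 probe sets agreed in direction for BI but followed each other loosely over the arrays (r = 0.51, n = 9).

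The probe set shared by Acot1 and Acot2 had 7.96, 9.14 and 8.57 on the BI arrays, 7.56, 8.34 and 8.48 on the insulin arrays and 7.75, 7.82 and 7.86 on the untreated arrays. The 3 BI arrays again lay above the 3 untreated arrays, the lowest of them by a small margin. Its difference of 0.75 ± 0.35 (SE) for BI minus untreated lay between those of the genes' own probe sets, and it was 0.45 without BI replicate 2.

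Acot3, a peroxisomal thioesterase for long-chain acyl-CoA, was measured by a dim probe set, with a mean of 5.80 against a median of 6.04 over all probe sets. Its levels were 5.42, 8.08 and 6.81 on the BI arrays, 5.74, 6.91 and 5.15 on the insulin arrays and 3.39, 5.83 and 4.88 on the untreated arrays. The groups overlapped, with BI replicate 1 below untreated replicate 2. The mean difference between BI and untreated, 2.07 ± 0.86 (SE), rests on low signals. With a floor at 6 it was 0.97, and without BI replicate 2 it was 1.41. Insulin minus untreated was 1.23 ± 0.86, and 0.30 with the floor.

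Acot4, a peroxisomal thioesterase for dicarboxylic acyl-CoA and succinyl-CoA, has 2 probe sets. With 1422076_at it stood at 7.08, 7.82 and 7.47 on the BI arrays, 6.79, 7.09 and 7.70 on the insulin arrays and 6.30, 7.24 and 6.92 on the untreated arrays. BI minus untreated was 0.64 ± 0.35 (SE), and the groups overlapped through BI replicate 1 and untreated replicate 2. It was 0.38 without untreated replicate 1 and 0.46 without BI replicate 2. The other probe set, 1422077_at, differed by 0.46 ± 0.28 between BI and untreated and overlapped as well (r = 0.70 between the pair, n = 9). Insulin minus untreated was 0.38 and 0.14 for the 2 probe sets.

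Aldh3a2, the fatty aldehyde dehydrogenase, was the one gene of the 8 whose 3 groups did not overlap in any comparison. It had 10.01, 10.12 and 10.42 on the BI arrays, 9.54, 9.93 and 9.88 on the insulin arrays and 9.12, 9.50 and 9.35 on the untreated arrays. Group means were 10.18 ± 0.21, 9.79 ± 0.21 and 9.32 ± 0.19 (SD, n = 3 each) for BI, insulin and untreated. BI minus untreated was 0.86 ± 0.20 (SE), a 1.82-fold difference, with 0.90 without BI replicate 2. Insulin minus untreated was 0.46 ± 0.20 and BI minus insulin 0.40 ± 0.20.

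Vnn1 codes for a membrane-bound pantetheinase, which releases cysteamine and the vitamin pantothenate from a product of CoA breakdown. Its probe set 1418486_at had 13.05, 12.17 and 12.63 on the BI arrays, 10.94, 12.11 and 12.05 on the insulin arrays and 10.80, 12.51 and 11.29 on the untreated arrays. Every BI array lay above every insulin array, and untreated replicate 2 lay within the BI range. BI minus untreated was 1.08 ± 0.52 (SE), BI minus insulin 0.92 ± 0.52 and insulin minus untreated 0.16 ± 0.52. The first of these was 0.71 without untreated replicate 1, 1.57 without untreated replicate 2 and 1.30 without BI replicate 2. The second Vnn1 probe set followed the first almost exactly (r = 0.996, n = 9), with 1.25 ± 0.59 for BI minus untreated.

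Cyp4a14, a microsomal omega-hydroxylase of medium and long fatty acids, varied far more than any other gene of the 8, and within every group. It stood at 12.46, 7.24 and 13.19 on the BI arrays, 7.34, 10.89 and 9.91 on the insulin arrays and 12.47, 8.60 and 6.35 on the untreated arrays. Each group held at least 1 array above 10 and at least 1 below 9, and the range over the 9 arrays was 115-fold. The difference between BI and untreated was 1.82 ± 2.05 (SE), smaller than its own error, and ran from 0.43 without untreated replicate 3 to 3.68 without BI replicate 2. Insulin minus untreated was 0.24 ± 2.05 and BI minus insulin 1.58 ± 2.05.

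The probe set shared by Cyp4a10 and Cyp4a31 had 12.69, 8.43 and 13.74 on the BI arrays, 10.58, 12.48 and 11.13 on the insulin arrays and 13.61, 9.26 and 8.41 on the untreated arrays. It was high and low on largely the same arrays as Cyp4a14, over a 40.2-fold range, and BI minus untreated was 1.20 ± 1.73 (SE), from 0.13 without BI replicate 3 to 2.79 without BI replicate 2. Cyp4a31, which also has a probe set of its own, stood at 7.93, 6.94 and 8.66 on the BI arrays, 7.22, 7.97 and 7.87 on the insulin arrays and 7.89, 7.14 and 7.15 on the untreated arrays. Over the 9 arrays Cyp4a14 followed the shared probe set (r = 0.94) and the Cyp4a31 probe set (r = 0.90). Similar sequences of these neighbouring genes could share probes, which was not tested. Cyp4a12a, another gene of the subfamily, did not follow Cyp4a14 (r = -0.04).

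Cyp4a14 and the shared probe set also went together within groups. With each array taken as its deviation from its group mean, Pearson's r was 0.97 and Spearman's rho 0.98, and the exact permutation p within groups was 0.00463 (two-sided, 9 arrays, 216 permutations), the smallest that these permutations can give. Over the 45 pairs of 10 probe sets examined in this way, the Benjamini-Hochberg adjusted p of this pair was 0.208. Of the 45 pairs 3 had an unadjusted p under 0.05 and 0 an adjusted one. The others of these 3 were Acot2 and Acot4, each with the probe set shared by Acot1 and Acot2. Their r of deviations was 0.55 and 0.73, with an exact permutation p of 0.0278 and 0.0417. The plan had correlations without p-values, and these tests were added to it. Without the 2 arrays whose Cyp4a14 deviation lay farthest from the median, BI replicate 2 and untreated replicate 3, r of the deviations was 0.93.

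**Figure D2:**
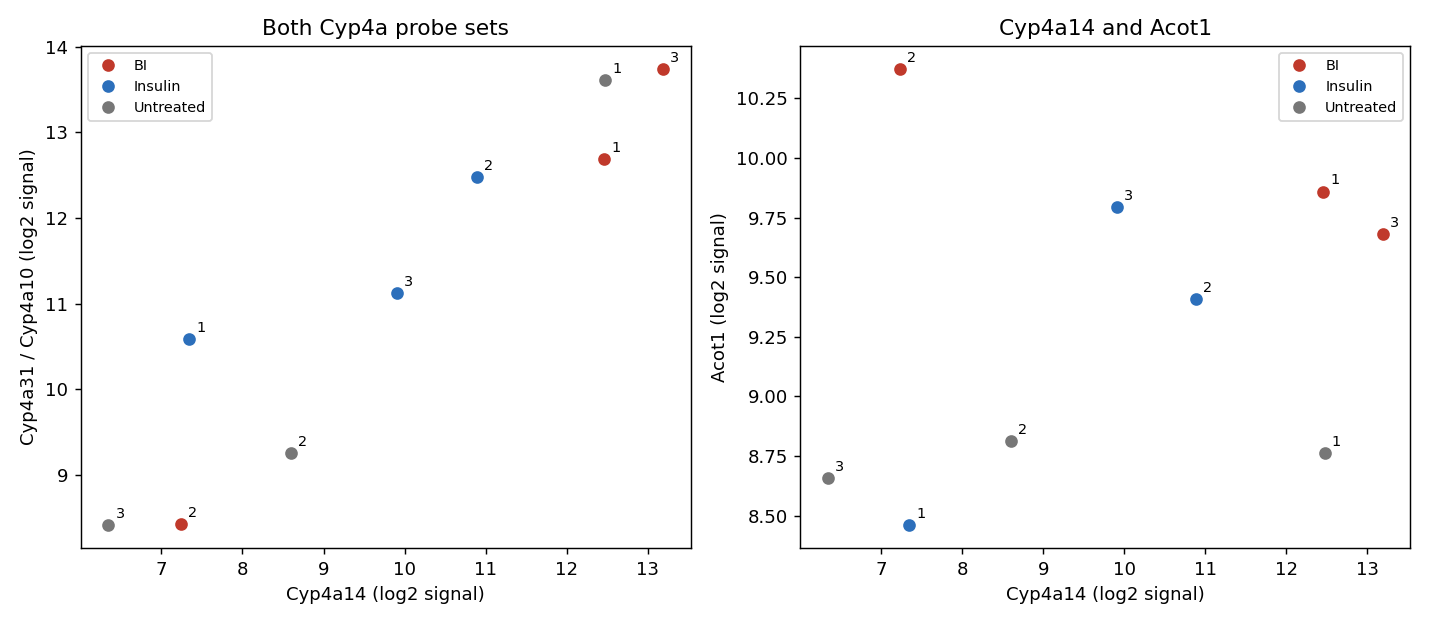
Cyp4a14 signal (horizontal axis, log2) against the signal of the probe set shared by Cyp4a10 and Cyp4a31 (left) and of Acot1 (right), both on vertical log2 axes, for the 9 arrays coloured by group and numbered by replicate. On the left the arrays run along one diagonal (r = 0.94) with BI, insulin and untreated arrays mixed along it, and on the right they do not (r = 0.27).

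Pdk4, the kinase that switches off the pyruvate dehydrogenase complex and is known to be lowered by insulin, had 7.96, 8.48 and 8.21 on the BI arrays, 7.67, 8.21 and 7.62 on the insulin arrays and 7.40, 8.16 and 9.81 on the untreated arrays. One untreated array, replicate 3, stood above all others, and the remaining 8 lay between 7.40 and 8.48. BI minus untreated was -0.24 ± 0.57 (SE) and insulin minus untreated -0.63 ± 0.57. Without untreated replicate 3 both turned positive, to 0.44 and 0.05. By the probe set with the highest mean of each gene, Pdk4 was the only one of the 8 with a negative mean difference in either comparison with untreated liver. The Acot2 probe set 1422996_at had -0.02 for insulin minus untreated.

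**Figure D3:**
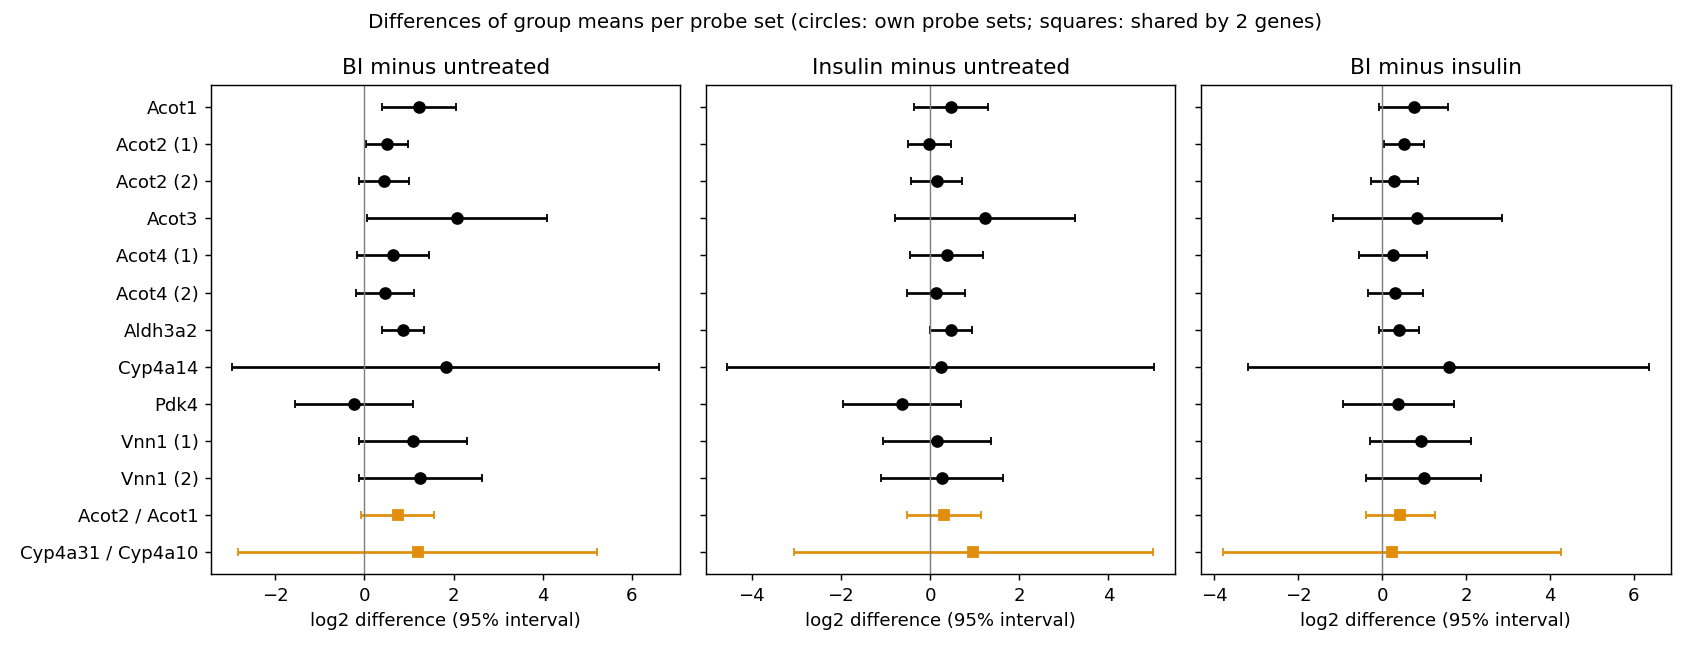
Log2 difference of each member probe set (rows) for BI minus untreated, insulin minus untreated and BI minus insulin, with bars for the 95% interval of the limma fit and numbers in brackets for the first and second probe set of a gene by ID. The intervals of Acot1, Acot3, Aldh3a2 and 1 of the 2 Acot2 probe sets lie above 0 for BI minus untreated. That of the same Acot2 probe set also does for BI minus insulin. These are the limma p-values under 0.05 before adjustment, which 4.48% and 4.04% of all probe sets had. The genes were chosen from these differences. The Cyp4a rows have the widest intervals.

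Plain insulin set against untreated liver gave smaller differences. Of the 8 genes 7 had a higher mean, with a median difference of 0.31, where 53.7% of all genes were higher with a median of 0.02. Aldh3a2 was the 1 probe set of the 11 that lay higher on every insulin array, where 5.33% of all probe sets lay higher and 3.86% lower without overlap. Of the 11, 0 passed 0.05 after adjustment by limma, as did 0 of all 45037 probe sets (0%), and 0 of the 11 had an unadjusted p under 0.05, as did 4.47% of all. This comparison and that of BI share the untreated arrays, so the values of a gene in both move together with those 3 arrays.

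Between the treatments, all 8 genes had a higher mean with BI than with plain insulin, with a median difference of 0.57, where 45.7% of all genes were higher and the median was -0.03. The Gapdh sign of RNA quality also lay apart here, at 0.26 to 0.42 on BI arrays and 0.48 to 0.55 on insulin arrays, and its part in the result was not tested. Aldh3a2, both Vnn1 probe sets and the Acot2 probe set 1422996_at lay higher on every BI array than on any insulin array. This is 4 of 11 probe sets, where 4.60% of all lay higher and 5.00% lower without overlap. By limma 0 of the 11 and 0% of all probe sets passed 0.05 after adjustment, and 1 of the 11 and 4.04% of all had an unadjusted p under 0.05. In none of the 3 comparisons did an own probe set of these genes lie lower without overlap.

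Correlations between the genes were read over the arrays. For levels, the 15 pairs among Acot1, Acot2, Acot3, Acot4, Aldh3a2 and Vnn1 had correlations of 0.43 to 0.81 with a median of 0.71, which contains the group differences the genes were chosen for. As deviations from group means, which leave out the differences between groups, the same pairs had 0.05 to 0.66 with a median of 0.48. Of these pairs 0 had an unadjusted exact permutation p under 0.05 (lowest 0.106, for Acot1 and Acot4). All 15 correlations of deviations were positive, but the plan did not set these 6 genes apart. Cyp4a14 and Pdk4 were left out of them, so nothing is read from the shared sign. The tests were of single pairs on 9 arrays, so they cannot decide whether the 6 genes covary as a set. Without the 2 arrays farthest from the median of the first gene, the 15 correlations ran from -0.20 to 0.58, and that of Acot1 and Acot2 was -0.03, against 0.66 with all arrays. For Cyp4a14 the correlations with the 6 genes were -0.20 to 0.37 over the arrays and -0.55 to 0.21 as deviations. Pdk4 had -0.07 to 0.38 with the 6 genes over the arrays and 0.03 to 0.59 as deviations, and -0.53 with Cyp4a14 over the arrays. These correlations share the 9 arrays and their scaling and are given as a description.

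**Figure D4:**
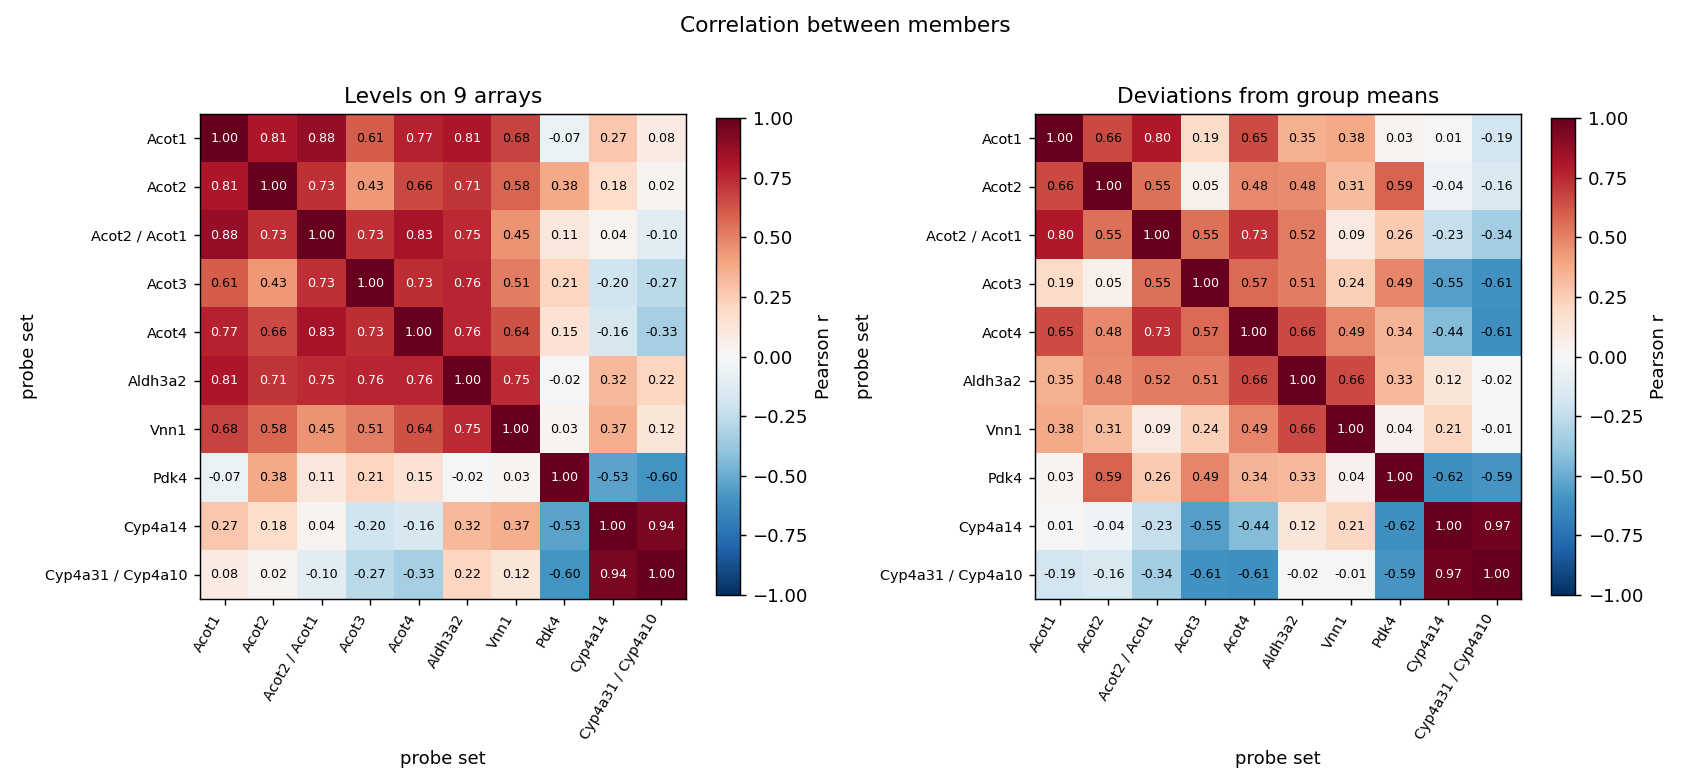
Pearson correlation between member probe sets as matrices coloured from -1 to 1, for levels on the 9 arrays (left) and deviations from group means (right). On the left the thioesterases, Aldh3a2 and Vnn1 form a block of positive values (0.43 to 0.81 between genes) and the Cyp4a probe sets pair with each other (0.94). The plan did not set this block apart, and its levels contain the group differences the genes were chosen from.

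A single value per array was made as the median over the 8 genes of the level minus its mean over the arrays. It was 0.25, 0.33 and 0.51 on the BI arrays, -0.49, 0.14 and 0.11 on the insulin arrays and -0.71, -0.14 and -0.53 on the untreated arrays. The BI arrays were the 3 highest, insulin replicates 2 and 3 came next, and insulin replicate 1 lay among the untreated arrays. The genes were chosen from differences between these groups, so nothing is read from this order. Of 10787 other genes at or above the median level, those most like the per-array value over the 9 arrays were Serpinb1a (r = 0.92), Slc19a3 (r = 0.91), Zfp119b (r = 0.90), Pop1 (r = 0.90) and Ndufb11 (r = 0.90). As deviations from group means the most alike were Synpo, Prox1 and Kdm8 (r = 0.97 each), then Ssbp1 and Tgif1 (r = 0.95 each). Chosen after values were seen, the genes most like Cyp4a14 were Cnpy2 (r = 0.96), Stk11 and Map3k4 (r = 0.93 each), and those most like Pdk4 were Elovl5 (r = 0.97), Notch1 (r = 0.95) and Gpam (r = 0.94). The highest of so many correlations over 9 arrays are high by selection.

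Markers of other cells were read beside this value. Of 6 adipocyte markers 4 were measured, all 4 below the median level, and their mean was 4.01 to 4.99 on BI arrays, 3.25 to 4.34 on insulin arrays and 2.26 to 3.92 on untreated arrays. This mean moved with the per-array value of the 8 genes (r = 0.90, n = 9), while the single markers had 0.77 (Adipoq), 0.50 (Cidea), 0.37 (Retn) and 0.20 (Lep). Adipoq, the fat cell hormone adiponectin, had 4.39, 4.24 and 5.45 on BI arrays, 2.59, 4.95 and 4.89 on insulin arrays and 0.45, 1.69 and 4.01 on untreated arrays. Its BI arrays lay above its untreated arrays, as did 4.94% of all probe sets. Cidea had 6.06 to 7.19 on BI arrays, 2.54 to 6.09 on insulin arrays and 2.79 to 6.27 on untreated arrays. Retn had 2.32 to 5.95 on BI arrays, 3.30 to 5.70 on insulin arrays and 2.86 to 4.45 on untreated arrays, and Lep had 1.38 to 3.28 on BI arrays, 1.55 to 4.23 on insulin arrays and 1.84 to 3.25 on untreated arrays. These 3 markers overlapped between BI and untreated. No adipocyte marker was at 0, and their part in the result was not tested. The means of the other 10 marker lists, hepatocyte and kidney tubule among them, had correlations of -0.38 to 0.16 with the per-array value. Single markers of these lists were apart too. Mb (r = 0.55) and Lrat (r = 0.56) lay higher on every BI array than on any untreated array. Tat (r = -0.60) and Actc1 (r = -0.80) lay lower, as did 4.26% of all probe sets. Acta1 and Stab2 overlapped, with r of -0.74 and -0.73.

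Other genes of the pathway were read from lists. Of 26 listed PPARA targets of fatty acid oxidation and ketogenesis 23 were measured, and 0 passed the test in either direction. With BI, 18 had a higher mean than in untreated liver, with a median difference of 0.08. Of the 23, 3 lay higher on every BI array than on any untreated array (Hsd17b4, Acadm and Crot) and 0 lay lower. Over all probe sets 4.94% lay higher and 4.26% lower without overlap. Cpt1a, which commits long-chain fatty acids to mitochondrial oxidation, had 12.59, 12.28 and 12.75 on BI arrays and 12.39, 11.78 and 11.91 on untreated arrays, a difference of 0.51 ± 0.29 (SE). Ehhadh, a peroxisomal oxidation enzyme, had 12.96, 13.33 and 13.25 on BI arrays and 13.23, 12.07 and 13.17 on untreated arrays. Its difference of 0.36 ± 0.33 leans on 1 low untreated array, replicate 2. Of 15 measured PPARA targets outside oxidation 6 were higher with BI, with a median of -0.09. Cd36, a fatty acid transporter, differed by 0.68 ± 0.34 and the acyl-CoA synthetase Acsl3 by -0.36 ± 0.29. Cd36 was the 1 gene of the 15 that lay higher without overlap, and 0 lay lower. The margin was very small, with 12.04 on its lowest BI array and 12.03 on its highest untreated array. Untreated replicate 1, at 10.68, was its lowest array. The lists were written with earlier results of these data known, and 0 of their genes passed the test in any of the 3 comparisons.

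Other thioesterases and acyl-CoA hydrolases, Acot5 and Acot6 of the chromosome 12 group among them, stood on both sides of 0. Of 13 measured, 6 were higher with BI than in untreated liver and the median difference was -0.03. Acot11 differed by 0.57 ± 0.36 (SE) and Acot7 by -0.30 ± 0.22. Acot7, Acot8 and Them4 lay lower on every BI array than on any untreated array, as did 4.26% of all probe sets. For Acot7 this was nearly a tie, with 8.825 on the highest BI array and 8.827 on the lowest untreated array. Its BI replicate 1 stood lowest, at 8.16. The 18 measured genes of other CYP4 enzymes and of the steps after them had a median of -0.05, with 0.45 ± 0.46 for Cyp4a31 and -0.29 ± 0.21 for Cyp4f16. Cyb5a was the 1 gene of the 18 that lay higher without overlap, as did 4.94% of all probe sets, and 0 lay lower. The 9 genes of pantetheinase and CoA synthesis had a median of -0.13, and Vnn3, the neighbour of Vnn1, differed by -0.71 ± 0.59, with 1 untreated array at 11.43 and the other 8 arrays between 8.79 and 9.65. The CoA synthesis gene Pank4 differed by -0.21 ± 0.23.

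Around Pdk4, 10 of 11 genes of the pyruvate dehydrogenase complex and its other regulators had a higher mean with BI than in untreated liver, with a median difference of 0.15. The exception was the kinase Pdk2, at -0.46 ± 0.31 (SE), and the phosphatase Pdp2, which acts against the kinases, differed by 0.44 ± 0.27. Among PPARA, its partners and regulators 8 of 16 were higher and the median was 0.00. Ppara itself differed by -0.15 ± 0.26. The coactivator gene Ppargc1a had 8.12, 8.00 and 8.32 on BI arrays, 7.97, 8.47 and 8.00 on insulin arrays and 8.65, 8.70 and 8.80 on untreated arrays. It lay lower on every array of both treatments than on any untreated array, with -0.57 ± 0.20 for BI minus untreated, and did not pass the adjusted test. Over all probe sets 4.26% lay lower without overlap for BI and 3.86% for insulin. Both comparisons share the untreated arrays. Rxrb, one of the partners of PPARA, differed by 0.40 ± 0.21.

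**Figure D5:**
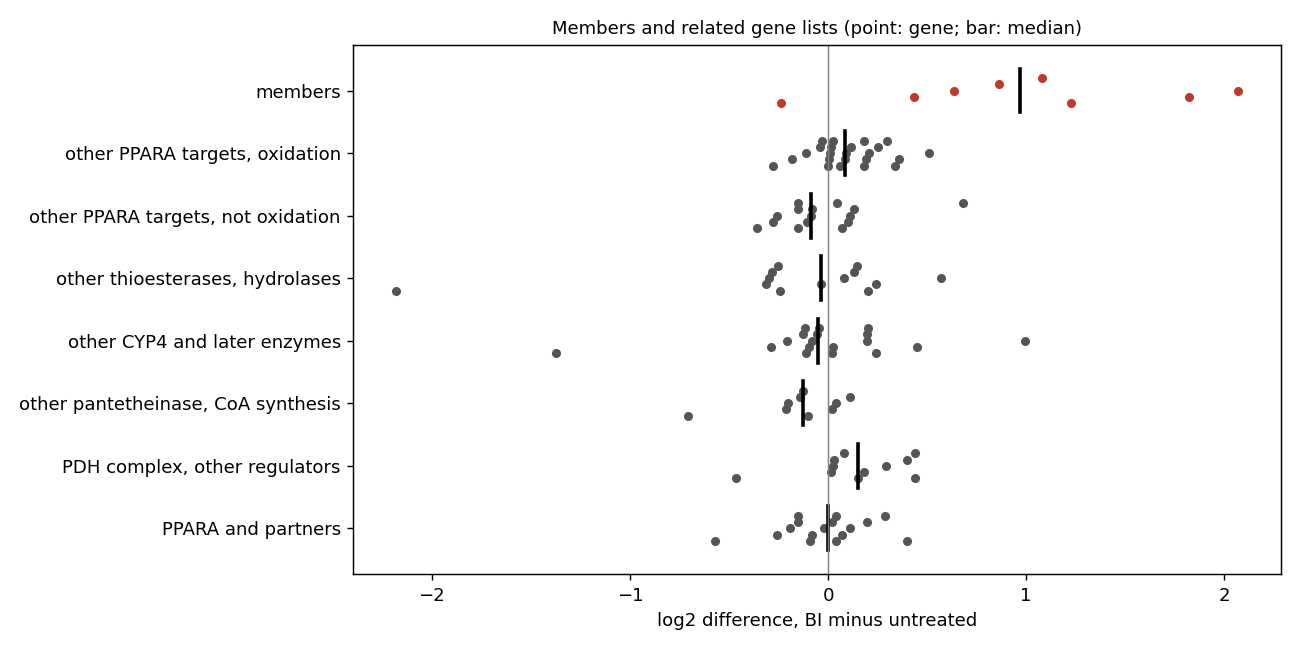
Log2 difference between BI and untreated (horizontal axis) for the 8 genes and for the measured genes of 7 related lists (rows). Points are genes and bars are medians: 0.97 for the 8 genes, and between -0.13 and 0.15 for the lists. The 8 genes were chosen with this comparison known, so their distance from the lists is not read as a result.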

How the data were processed

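Per the labels' protocols, TRIzol-extracted liver RNA was amplified by a 3' IVT kit to biotin-labelled cRNA for 9 one-colour Affymetrix arrays. The deposited values are the authors' log2 signals per probe set. The software that summarized and normalized them is not stated in the labels. On a linear scale all arrays had the same 2% trimmed mean, 500.004, and 152 to 247 probe sets per array sat at the floor of 0, so the values were used as scaled. Detection calls were not used. Control probe sets (64 of 45101) were left out. Names came from the platform annotation of 2016, with 34945 probe sets annotated to 1 gene, 932 to several and 9160 unnamed here, and 34741 of the first were matched to current names. For a gene with several probe sets, the one with the highest mean over the arrays stands for it.

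One limma fit (version 3.58.1, R 4.3.3, lmFit and eBayes, tested on simulated data) with the group as the only factor gave the 3 comparisons, with two-sided p-values, Benjamini-Hochberg adjustment over 45037 probe sets and a threshold of 0.05. Standard errors and 95% intervals are from this fit. The number of arrays limits the precision. Members and lists were chosen with earlier results of these data known. By the naming rule all 9 members are named, and of each list the genes past the threshold or else the 2 with the largest difference between BI and untreated at or above the median level of 6.04. The 5 genes most like the per-array member value by correlation, over arrays and as deviations, are also named. Genes named beside these were chosen after their values were seen. Same-numbered arrays were checked for pairing: their deviations correlated between -0.16 and 0.15 over 9 pairs, so replicate numbers were not used as a block.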

Additional observations from a re-analysis of the deposited data

How the results depend on the processing

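Counts of probe sets past the threshold were small and moved with the processing. For BI against untreated, the 5 probe sets called became 1 with dim probe sets left out, and 0 with only the compared groups fitted, with a floor at 6 or with the replicate block. Leaving out each array in turn gave 0 to 2. For BI against insulin, the count of 0 became 1 with dim probe sets left out and 0 to 1 with arrays left out. Replicate numbers did not pair the arrays, so the block is only an alternative, and no member was called with or without it. The count of member genes higher without overlap ranged from 3 to 6 with single arrays left out for BI against untreated (6 without untreated replicate 2 and 5 without BI replicate 1), from 1 to 2 for insulin against untreated and from 2 to 4 for BI against insulin. Groups with an array left out separate more easily. The shares of all probe sets were not computed for them, so nothing is read from these counts. The median member difference ran from 0.73 to 1.11, from 0.06 to 0.58 and from 0.34 to 0.71 in these comparisons. Of 30 member values, 24 kept their direction with each of 9 arrays left out and under the 9 other settings that gave a value. Acot3 has none with dim probe sets left out, nor the shared probe sets with the mean of all probe sets. The other 6 belong to Pdk4, Cyp4a14, Vnn1 and the probe set shared by Cyp4a10 and Cyp4a31. Insulin minus untreated ran from -1.16 to 1.91 for Cyp4a14 and from -0.20 to 0.65 for Vnn1. For the shared Cyp4a probe set it was -0.04 without untreated replicate 3, and BI minus insulin ran from -0.84 to 1.82. The cause was not tested.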
